A study of Mus musculus with 8 samples.

Results

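The genes of interleukins, colony-stimulating factors and their receptors were studied in the brown adipose tissue (BAT) of obese mice. Members were the protein-coding genes whose symbol begins with Il and a number or with Csf1, Csf2 or Csf3, found by mapping the gene identifiers to the mouse annotation of GRCm38. The rule gave 90 of 44674 genes, of which 40 encode ligands, 45 receptors or receptor chains, 4 antagonists or binding proteins and 1 an enzyme (*Il4i1*, an amino acid oxidase induced by interleukin 4). BAT was taken at the end of a hyperinsulinemic-euglycemic clamp, in which insulin is infused and blood glucose is held steady with glucose, from 4 control mice and 4 Ox1RΔSERT mice. All 8 mice were males on a high-fat diet (HFD) from week 4 to week 18 and carried floxed alleles of *Hcrtr1*, the gene of orexin receptor 1 (Ox1R). Ox1RΔSERT mice (Ox1R fl/fl, Sert-Cre tg/wt) also carried a Cre transgene driven by the gene of the serotonin transporter (SERT), which deletes Ox1R in serotonergic neurons (cells that express SERT), and control mice (Ox1R fl/fl, Sert-Cre wt/wt) had no Cre. In BAT, *Hcrtr1* had 0 to 5 counts per mouse and *Slc6a4*, the gene of SERT, had 6 to 21. The deletion was aimed at neurons, so counts in BAT cannot check it. The paper checked it by RNAscope in situ hybridization in raphe nuclei of Ox1RΔSERT mice that also carried a tdTomato reporter. It further examined the loss of receptor signalling in serotonergic neurons of the dorsal raphe, with patch-clamp recordings and calcium imaging.

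Interleukins and colony-stimulating factors are secreted proteins through which leukocytes, stromal cells and adipocytes signal to each other. Most bind receptors of several chains, one that recognises the ligand and one that is shared with other ligands, and signal through JAK kinases and STAT factors, whereas the receptors of the IL-1 family signal through MyD88 and NF-kappa B. In adipose tissue, IL-4, IL-13 and IL-33 are known for their part in type 2 immunity, CSF1 and IL-34 for maintaining macrophages, and IL-1β and IL-6 for the inflammation of obesity.

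Libraries held 35852667 to 50063257 counts. The normalized value of a gene is its count scaled to a common library size (CPM) with TMM factors, and 3 counts corresponded to normalized values of 0.0592 to 0.0951. Levels of different genes are compared in TPM, which takes transcript length into account. Ox1RΔSERT mice 11601 and 11708 stood apart from the other 6: on the first principal component of all genes tested, with 53.6% of the variance, they lay at 59.3 and 77.0 and the others between -44.3 and 7.13. For members described below that were at an unadjusted p under 0.05, the fold change is therefore also given without these 2 mice. In the comparison of groups with edgeR's quasi-likelihood test, 0% of the 14489 genes tested were called after adjustment over all of them, with adjusted p-values of 0.316 or more. Without adjustment, 10.2% of genes were higher and 4.96% lower in Ox1RΔSERT mice at the 0.05 level, and DESeq2 called 1.54% of 15119 genes higher and 0.212% lower. BAT of this kind holds several cell types, and fewer cells of a type and less RNA per cell cannot be told apart in it.

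More genes of receptors than of ligands were expressed in BAT of these mice. Of the 45 receptor genes, 32 passed the filter on low counts and 19 had a mean of at least 1 TPM over the 8 mice, whereas 9 of 40 ligand genes passed and 4 had at least 1 TPM (*Csf1*, *Il33*, *Il34* and *Il1b*). A further 21 ligand genes had at most 3 counts in any mouse, and 11 of those had none. Ligands without a count in any of the 8 mice included *Il3*, *Il9*, *Il17a*, *Il22* and *Il25*, and *Il4*, *Il5* and *Il13*, the classical cytokines of type 2 T cells, had at most 2 counts in a mouse. For a gene without counts, the depth allows no more than the 3-count values given above, which cover counting error only. Both members with a fit among the antagonists and binding proteins, *Il1rn* and *Il18bp*, had means above 1 TPM. The summed TPM of all 90 members was 135, 109, 114 and 113 TPM in control mice 10684, 11253, 11560 and 11563, against 118, 314, 167 and 317 in Ox1RΔSERT mice 11243, 11601, 11613 and 11708. Mice 11601 and 11708 had the highest sums, and that of mouse 11243 was within the control range. Genes of the mitochondrial genome held 40.0% to 46.8% of counts in control mice. In Ox1RΔSERT mice they held 44.6%, 33.6%, 34.0% and 36.2%, in the same order. TPM adds up to the same total in each mouse, so sums of other genes depend on this share. Its part in the sums was not tested.

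**Figure D1:**
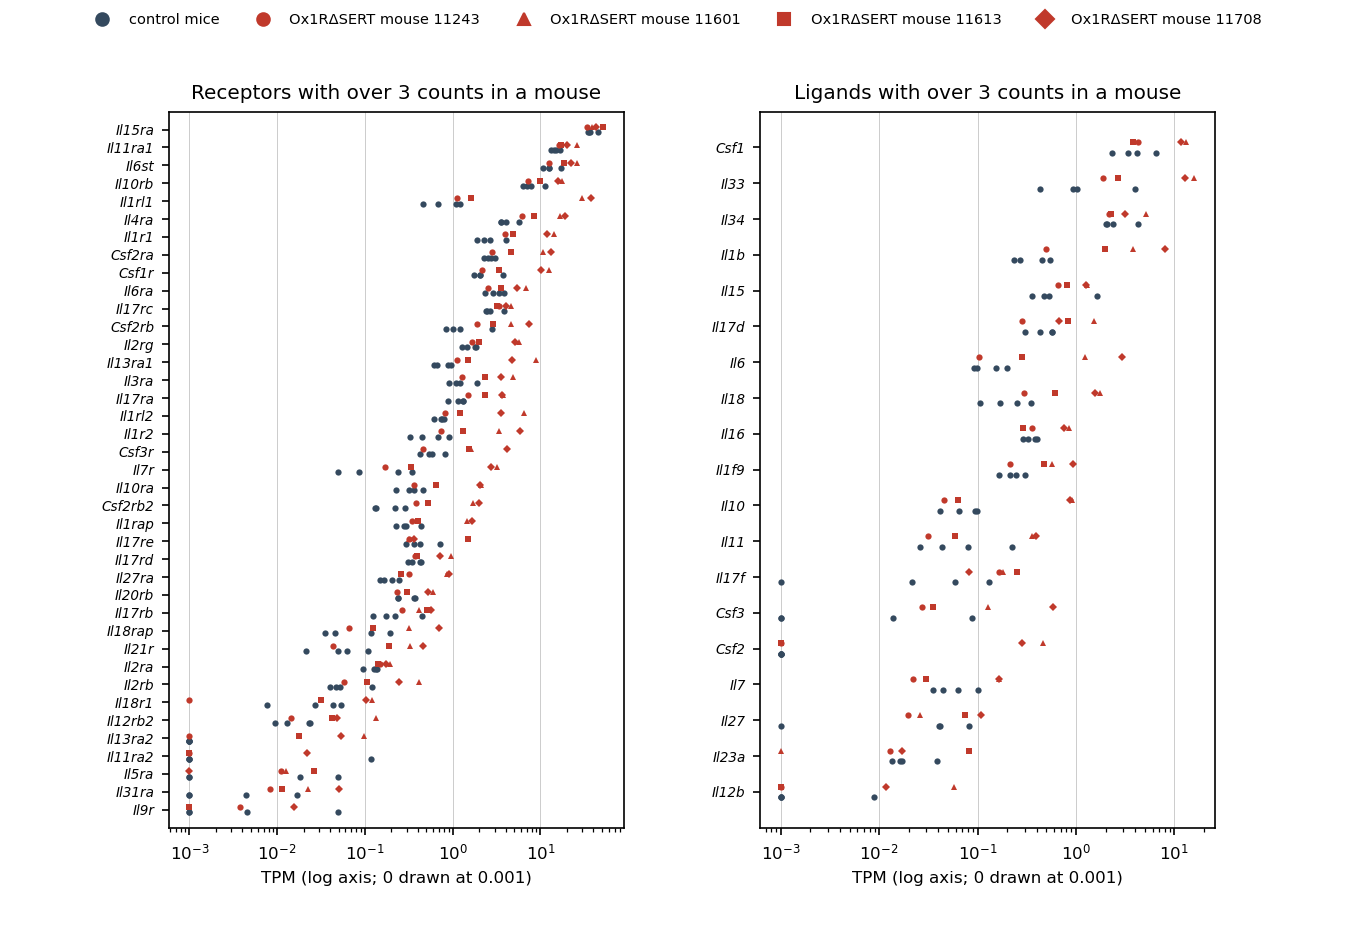
TPM of receptor genes (left) and ligand genes (right) with more than 3 counts in at least 1 mouse, on a log axis, with 1 point per mouse; grey circles are the 4 control mice and red symbols the 4 Ox1RΔSERT mice. *Il15ra* has the highest mean among receptors and *Csf1* among ligands, and the red triangles (11601) and diamonds (11708) lie to the right for most genes.

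Of the 43 members that were tested (9 ligands, 32 receptors and 2 antagonists or binding proteins), 42 had a positive log2 fold change, that is, a higher fitted level in Ox1RΔSERT mice. Of all 14489 genes tested, 7301 had a positive one. The exception among the members was *Il15ra*, which was above 0 under library size scaling and on both TPM scales, where all 43 were positive. Under these scalings the median of all genes was itself above 0, at 0.22 with library size, 0.32 with log2(TPM + 0.1) and 0.23 with log2(TPM + 1). With limma voom 41 members were positive. The median log2 fold change was 1.15 over the 32 receptors and 0.64 over the 9 ligands, beside 0.0021 over all genes tested. Unadjusted p-values were under 0.05 for 20 of 32 receptors, 4 of 9 ligands and 1 of 2 antagonists, each of them higher in Ox1RΔSERT mice, and for no member that was lower. These 25 members, 58.1% of the 43, stand beside the 10.2% of all genes tested. None passed adjustment in edgeR. DESeq2 gave an adjusted p for 47 members. It called 8 of them higher and 0 lower, beside 1.54% and 0.212% of all genes: *Il1b*, *Csf2rb2*, *Il4ra*, *Il17ra*, *Il13ra1*, *Il1r1*, *Il1rl1* and *Csf2ra*. Each of these calls was lost when some single mouse was left out: of 8 such fits, DESeq2 called *Il1b* in 7, *Csf2rb2* in 5, *Il4ra*, *Il17ra* and *Il13ra1* in 4, *Il1r1* in 3, and *Il1rl1* and *Csf2ra* in 2.

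The level in most members followed mice 11601 and 11708. These mice had the 2 highest normalized values in 32 of the 43 members, 74.4%, beside 20.1% of all genes tested, and the 2 lowest in 2 members, beside 15.3% of all genes. Taken per mouse, the median over the 32 receptors of the log2 deviation from the control mean was 1.44 in mouse 11601 and 1.64 in mouse 11708, but 0.47 in mouse 11613 and 0.12 in mouse 11243. Control mice lay between -0.22 and 0.12. Over the 9 ligands the medians were 1.01, 1.15, 0.55 and 0.11 in the same order, and control mice reached 0.46 (mouse 10684). Without mice 11601 and 11708, 6 members were at an unadjusted p under 0.05, beside 2.85% of 14856 genes in either direction, and these 6 were among the 25: *Il4ra*, *Il1r1*, *Il13ra1*, *Il17ra*, *Csf2rb2* and *Il1b*. The median over the receptors tested was then 0.26 and over the ligands 0.16, beside -0.012 for all genes. No member was called by edgeR or DESeq2 without both mice.

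**Figure D2:**
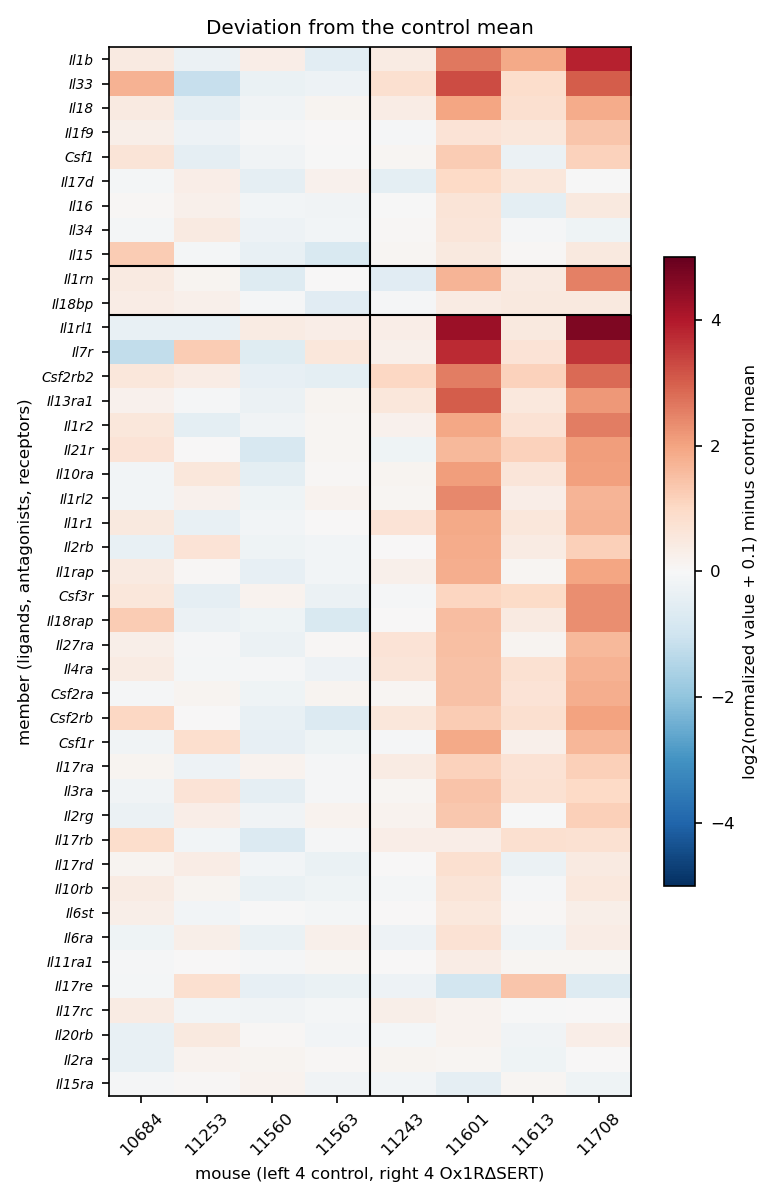
Deviation of each mouse from the control mean, as log2 of the normalized value plus 0.1, for the 43 members tested; rows are grouped into ligands, antagonists and receptors, each ordered by fold change. The columns of mice 11601 and 11708 are red in most rows, with medians over the 32 receptors of 1.44 and 1.64, and *Il15ra*, at the bottom, is not.

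Members of which every Ox1RΔSERT mouse exceeded every control mouse are described first. There were 5 such members (*Il4ra*, *Il13ra1*, *Il1r1*, *Il17ra* and *Csf2rb2*), all of them receptors, beside 2.69% of all genes tested, and 0 members with every Ox1RΔSERT mouse below, beside 2.81%. Any gene without overlap has an exact two-sided permutation p of 0.0286, which is the minimum in this design. This p follows from how the 5 were chosen and is no further evidence. The adjusted p of all 5 was 0.316 in edgeR's quasi-likelihood test. Without mice 11601 and 11708, 5 of the 44 members fitted did not overlap, beside 10.8% of all genes in either direction.

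Among the members that the results turn on, the bases before the start site are shown for *Il13ra1* (chrX:36111858-36112107, plus strand), *Csf2rb2* (chr15:78305722-78305971, minus strand) and *Il1b* (chr2:129371140-129371389, minus strand), each the 250 bases that precede the RefSeq start on GRCm38.p6, 5′ to 3′. *Il13ra1* and *Csf2rb2* are receptors whose groups did not overlap and *Il1b* is the ligand with the lowest p in DESeq2. Capitals mark matches on either strand to the STAT site TTCNNNGAA or the PU.1 core GAGGAA.
*Il13ra1*: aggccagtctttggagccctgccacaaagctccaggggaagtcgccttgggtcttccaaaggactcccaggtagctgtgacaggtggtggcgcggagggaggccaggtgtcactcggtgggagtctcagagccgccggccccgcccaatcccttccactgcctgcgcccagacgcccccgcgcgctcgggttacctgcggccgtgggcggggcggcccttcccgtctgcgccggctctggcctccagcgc
*Csf2rb2*: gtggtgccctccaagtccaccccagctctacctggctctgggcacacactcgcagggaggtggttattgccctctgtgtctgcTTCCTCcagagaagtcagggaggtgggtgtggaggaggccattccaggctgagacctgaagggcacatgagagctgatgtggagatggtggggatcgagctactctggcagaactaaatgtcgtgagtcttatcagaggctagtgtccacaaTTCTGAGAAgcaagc
*Il1b*: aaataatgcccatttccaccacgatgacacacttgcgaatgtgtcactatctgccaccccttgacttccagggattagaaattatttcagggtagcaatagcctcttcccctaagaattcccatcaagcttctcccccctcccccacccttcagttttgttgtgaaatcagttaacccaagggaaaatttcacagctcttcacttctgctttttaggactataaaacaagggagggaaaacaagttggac
In *Csf2rb2* the STAT match began 15 bases before the start site and the PU.1 match, on the opposite strand, 167 bases before it. The C/EBP site TTGCNNAA and the kappa B site were also searched, and the windows of *Il13ra1* and *Il1b* held none of the 4 motifs. Among 32851 promoter windows of this length in the table, 7.02% held the STAT site, 23.3% the PU.1 core, 9.56% the C/EBP site and 7.25% the kappa B site. Among the 85 windows of the 70 members that had one, the shares were 10.6%, 30.6%, 17.6% and 9.41%. A match describes the letters only.

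*Il4ra* (ENSMUSG00000030748, chromosome 7, 125552120 to 125579474 of GRCm38) encodes the chain that binds IL-4 and is shared with the receptor of IL-13. Its normalized value was 37.6, 26.1, 26.8 and 23.4 in the control animals 10684, 11253, 11560 and 11563, against 42.6, 77.6, 47.3 and 93.1 in Ox1RΔSERT mice 11243, 11601, 11613 and 11708. All 4 Ox1RΔSERT mice lay above the controls, mice 11243 and 11613 by little. The means were 28.5 ± 6.24 and 65.1 ± 24.2 (SD, n = 4 each), and the log2 fold change was 1.19 (standard error, SE, 0.27), with an adjusted p of 0.00642 in DESeq2. Without mice 11601 and 11708 the log2 fold change was 0.66. An antisense gene, *Gm44876*, shares 571 exon bases with *Il4ra* on the other strand, and whether the quantification used the strand is not given in the sources used here.

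*Il13ra1* (ENSMUSG00000017057, chromosome X, 36112110 to 36171259) encodes the partner chain that binds IL-13. Normalized values were 3.84, 3.14, 2.62 and 3.64 in controls and 4.93, 27.1, 4.71 and 14.9 in Ox1RΔSERT mice, in the same order of mice, which is kept below for all normalized values and ratios. Mice 11601 and 11708 lay far above the rest, and mice 11243 and 11613 just above the highest control. The log2 fold change was 1.96 (SE 0.55), with an adjusted p of 0.0178 in DESeq2, and 0.55 without those 2 mice. The ligands of this receptor pair, *Il4* and *Il13*, were close to absent (at most 2 counts), and *Il13ra2*, the decoy receptor of IL-13, had no count in the control mice and in mouse 11243 and at most 9 in the others. *Il2rg*, the common gamma chain with which *Il4ra* also pairs, was at 2.51, 3.90, 2.73 and 3.49 in controls and at 3.54, 8.15, 3.10 and 7.22 in Ox1RΔSERT mice. Its groups overlapped, and the log2 fold change was 0.80 (SE 0.34), 0.079 without mice 11601 and 11708. Of the 31-base words of its transcripts, 28.7% are shared with the overlapping gene *Gm20489*, so its level is uncertain.

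*Il17ra* (ENSMUSG00000002897, chromosome 6, 120463247 to 120487559) encodes the common chain of the IL-17 receptors. Normalized values of 6.54, 5.07, 6.73 and 5.82 in control mice compared with 7.90, 13.6, 9.95 and 13.7 in Ox1RΔSERT mice. This member had the smallest SE of the 5, with mouse 11613 between mouse 11243 and the 2 high mice. Its log2 fold change was 0.90 (SE 0.20), 0.57 without mice 11601 and 11708, and the adjusted p in DESeq2 was 0.0109. *Il17rc*, which pairs with *Il17ra* for IL-17A and IL-17F, was at 8.29, 5.58, 5.40 and 5.76 in controls and at 7.56, 7.06, 6.08 and 6.27 in Ox1RΔSERT mice. Control mouse 10684 had the highest value of all, and the log2 fold change was 0.11 (SE 0.17). Of the ligands, *Il17a* had no counts and *Il17f* at most 8, and *Il17d*, a member whose receptor is less well defined, was at 0.288, 0.412, 0.203 and 0.378 in controls and 0.197, 0.730, 0.516 and 0.309 in Ox1RΔSERT mice. The values of *Il17d* overlapped, with a log2 fold change of 0.46 (SE 0.44).

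The IL-1 family held the member with the largest fold change. *Il1r1* (ENSMUSG00000026072, chromosome 1, 40225080 to 40317257), the signalling receptor of IL-1, was at 19.9, 10.7, 12.7 and 14.2 in controls and at 22.6, 52.2, 20.6 and 47.4 in Ox1RΔSERT mice. The groups did not overlap, but mice 11243 and 11613 were close to control mouse 10684. Its log2 fold change was 1.31 (SE 0.34), with an adjusted p of 0.0181 in DESeq2, and it was 0.59 without mice 11601 and 11708. *Il1r2*, a decoy receptor that binds IL-1 without signalling, was at 1.46, 0.666, 0.835 and 1.05 in controls and 1.14, 3.94, 1.66 and 6.15 in Ox1RΔSERT mice. The groups overlapped through mouse 11243, and the log2 fold change was 1.68 (SE 0.53), with an adjusted p of 0.0573 in DESeq2, and 0.48 without mice 11601 and 11708.

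*Il1rl1* (ENSMUSG00000026069, chromosome 1, 40429570 to 40465415) encodes ST2, the receptor of IL-33. It was at 2.59, 2.57, 4.43 and 4.22 in controls and at 4.26, 67.2, 4.76 and 86.8 in Ox1RΔSERT mice. Mice 11601 and 11708 were far above all others, mouse 11613 slightly above the controls and mouse 11243 within their range. The log2 fold change was 3.56 (SE 0.98), the largest of the 43 members, with an adjusted p of 0.0322 in DESeq2 and an exact permutation p of 0.0571, and it was 0.38 without those 2 mice. The ligand *Il33*, an alarmin of stromal cells, was at 11.6, 1.46, 2.69 and 2.80 in controls and at 5.90, 33.5, 6.24 and 28.3 in Ox1RΔSERT mice. Control mouse 10684 exceeded Ox1RΔSERT mice 11243 and 11613, and the log2 fold change was 1.99 (SE 0.79), with an adjusted p of 0.21 in DESeq2, and 0.39 without those mice.

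Genes of 6 receptors of the IL-1 family (*Il1r2*, *Il1r1*, *Il1rl2*, *Il1rl1*, *Il18r1* and *Il18rap*) lie within 478 kb of chromosome 1, from 40074079 to 40551705. Of these, 5 were tested and 4 were at an unadjusted p under 0.05, with log2 fold changes between 1.28 (*Il18rap*, the member that was not) and 3.56 (*Il1rl1*). Beside them, 62.5% of the 32 receptors tested and 10.2% of all genes tested were higher at such a p. *Il1rl2*, the receptor of IL-36, had a log2 fold change of 1.46 (SE 0.49), 0.23 without mice 11601 and 11708, and *Il1f9*, which encodes IL-36γ, one of 0.83 (SE 0.35), 0.32 without them. *Il1rap*, the accessory chain of IL-1, IL-33 and IL-36 receptors, which lies outside this region, had a log2 fold change of 1.30 (SE 0.48), and 0.16 without the 2 mice.

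*Il1b* (ENSMUSG00000027398, chromosome 2, 129364570 to 129371139), which encodes IL-1β, was the only ligand that DESeq2 called. Its normalized value was 0.915, 0.507, 0.835 and 0.420 in controls and 0.895, 4.52, 2.63 and 10.5 in Ox1RΔSERT mice. Mice 11601, 11613 and 11708 exceeded every control mouse, whereas mouse 11243 was just below control mouse 10684. Means were 0.670 ± 0.242 and 4.64 ± 4.19 (SD, n = 4 each), and the log2 fold change was 2.79 (SE 0.69), with an adjusted p of 0.316 in edgeR and 0.00366 in DESeq2. The log2 fold change was 1.39 without mice 11601 and 11708. Among the fits that left out 1 mouse, DESeq2 did not call *Il1b* without mouse 11708.

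*Il1a*, the other agonist of the IL-1 receptor, had at most 3 counts in a mouse and was not tested. Its normalized values were 0, 0, 0.0226 and 0 in controls and 0.0655, 0.0394, 0 and 0.0617 in Ox1RΔSERT mice, all at or under the 3-count values. *Il1rn* encodes the antagonist that competes with IL-1. It was at 5.28, 4.25, 2.42 and 3.93 in controls and at 2.58, 12.7, 5.23 and 22.4 in Ox1RΔSERT mice. Mice 11601 and 11708 were above all controls and mouse 11243 was near the lowest of them, with a log2 fold change of 1.44 (SE 0.59), which was -0.02 without the 2 high mice. In TPM, the ratio of *Il1b* to *Il1rn* was 0.208, 0.170, 0.448 and 0.129 in controls and 0.436, 0.473, 0.661 and 0.604 in Ox1RΔSERT mice. Mouse 11243 was just below control mouse 11560, and all other Ox1RΔSERT mice were above the controls, with an exact permutation p of 0.0571, which was 0.193 after Benjamini-Hochberg adjustment over the 9 ratios computed.

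*Il18*, which like *Il1b* is made as a precursor cleaved by caspase 1, was at 0.262, 0.0951, 0.135 and 0.189 in controls and 0.240, 0.947, 0.359 and 0.864 in Ox1RΔSERT mice. All but mouse 11243 were above the controls, and the log2 fold change was 1.80 (SE 0.52), with an adjusted p of 0.103 in DESeq2, and 0.79 without mice 11601 and 11708. Its antagonist *Il18bp* was at 1.86, 1.71, 1.33 and 0.925 in controls and 1.33, 1.91, 2.04 and 2.04 in Ox1RΔSERT mice. These values overlapped, with a log2 fold change of 0.33 (SE 0.26).

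**Figure D3:**
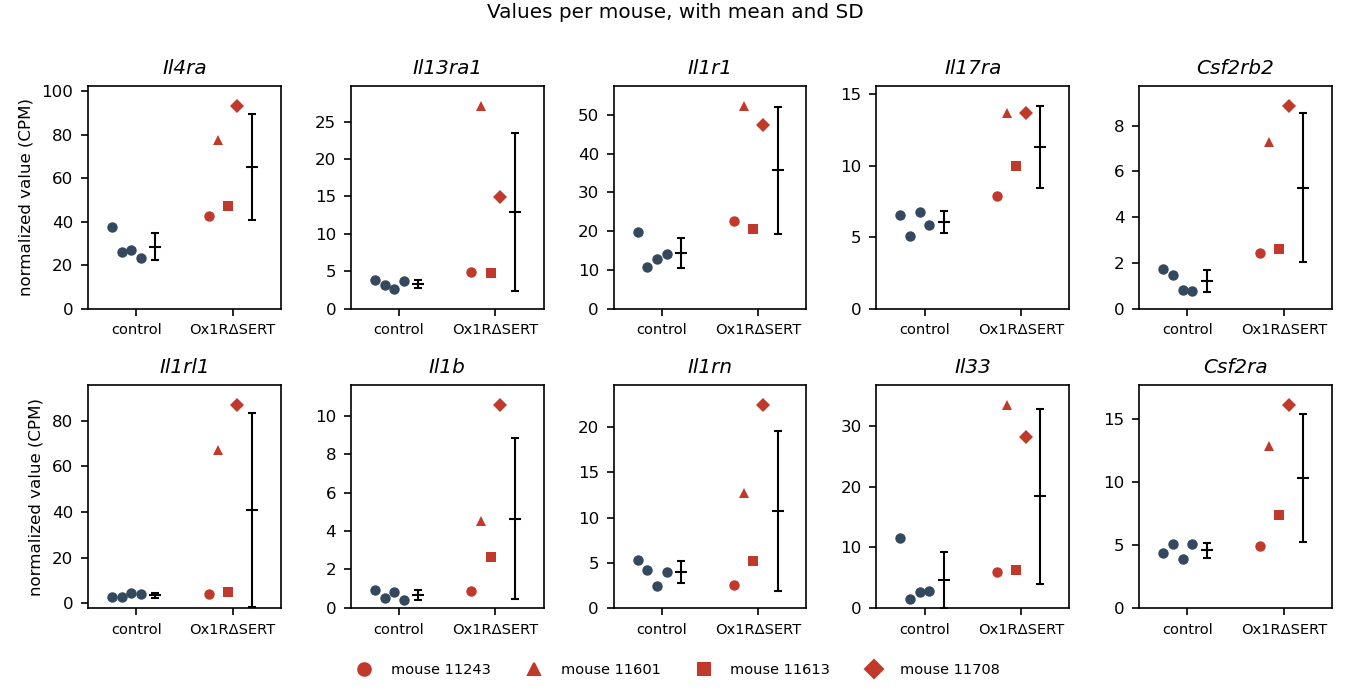
Normalized value (CPM after TMM scaling, linear axes) of 10 members per mouse, with the mean and SD of each group (n = 4) as a bar at the side; grey circles are control mice and the red symbols identify each Ox1RΔSERT mouse. In the first 5 panels all red symbols lie above the grey ones, and in *Il1rl1* mice 11601 and 11708, at 67.2 and 86.8, are far above the remaining 6.

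Of the receptor chains for GM-CSF, IL-3 and G-CSF, DESeq2 called *Csf2rb2* and *Csf2ra* higher in Ox1RΔSERT mice, and not *Csf2rb* and *Csf3r*. *Csf2rb2* (ENSMUSG00000071714, chromosome 15, 78282507 to 78305721) encodes a beta chain that in mice serves IL-3 alone. It was at 1.73, 1.49, 0.835 and 0.778 in controls and at 2.42, 7.28, 2.63 and 8.84 in Ox1RΔSERT mice. The groups did not overlap, the log2 fold change was 2.14 (SE 0.50) and the adjusted p in DESeq2 was 0.00412. Without mice 11601 and 11708 the log2 fold change was 1.08.

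The neighbouring *Csf2rb* encodes the beta chain common to the receptors of GM-CSF, IL-3 and IL-5. Values of 17.6, 8.53, 6.48 and 5.32 in control mice compared with 12.6, 20.6, 15.0 and 34.2 in Ox1RΔSERT mice. Control mouse 10684 exceeded mice 11243 and 11613, and the log2 fold change was 1.12 (SE 0.43), with an adjusted p of 0.121 in DESeq2, and 0.55 without mice 11601 and 11708. Of the 31-base words of its transcripts, 19.7% also occur in other genes, and 30.1% of those of *Csf2rb2*, most of them shared between these near copies, so that their split by the quantification is uncertain. In TPM, the ratio of *Csf2rb* to *Csf2rb2* was 9.76, 5.48, 7.48 and 6.45 in controls and 4.96, 2.70, 5.40 and 3.69 in Ox1RΔSERT mice. Every Ox1RΔSERT mouse had a lower ratio than every control mouse, with means of 4.19 ± 1.23 and 7.29 ± 1.84 (SD, n = 4 each) and an exact permutation p of 0.0286, which was 0.193 after adjustment over the 9 ratios.

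*Csf2ra*, the chain that binds GM-CSF, was at 4.34, 5.04, 3.86 and 5.04 in controls and at 4.89, 12.8, 7.36 and 16.0 in Ox1RΔSERT mice. Mouse 11243 lay within the control range and the others above it, with a log2 fold change of 1.17 (SE 0.34) and an adjusted p of 0.0413 in DESeq2. It was 0.43 without mice 11601 and 11708. The ligand *Csf2* had counts in mice 11601 and 11708 alone, 13 and 8, and none in the other 6. *Csf3r*, the receptor of G-CSF, was at 3.16, 1.52, 2.37 and 1.72 in controls and 2.01, 4.50, 4.18 and 11.0 in Ox1RΔSERT mice. Mouse 11243 was again among the controls, and the log2 fold change was 1.30 (SE 0.48), with an adjusted p of 0.113 in DESeq2, and 0.50 without mice 11601 and 11708. The gene *AC105061.2* and others share 23.1% of its 31-base words, so this level is uncertain too. Genes on the opposite strand overlap *Il16* and *Csf1r*, and other genes hold 16.6% and 14.95% of their 31-base words.

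The ligands of the CSF1 receptor were the most abundant ligands with *Il33*. *Csf1*, with the highest mean TPM of all ligands (6.19), was at 29.9, 13.7, 17.0 and 18.5 in controls and at 20.4, 45.2, 15.3 and 42.1 in Ox1RΔSERT mice. Mice 11601 and 11708 were above every control, and mice 11243 and 11613 within the control range, with a log2 fold change of 0.64 (SE 0.38). *Il34*, the second ligand of this receptor, was at 3.24, 4.76, 2.89 and 3.11 in controls and 3.58, 5.31, 3.30 and 2.94 in Ox1RΔSERT mice. The groups overlapped throughout, with a log2 fold change of 0.11 (SE 0.24).

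*Csf1r*, the receptor on macrophages, was at 10.6, 21.7, 9.12 and 10.4 in controls and at 11.7, 45.5, 14.7 and 38.3 in Ox1RΔSERT mice. Control mouse 11253 was higher than mice 11243 and 11613, and the log2 fold change was 1.09 (SE 0.47), 0.04 without mice 11601 and 11708. The ratio of *Csf1r* to *Csf1* in TPM did not separate the groups, with means of 0.797 ± 0.195 in Ox1RΔSERT and 0.734 ± 0.601 in control mice (SD, n = 4 each) and an exact permutation p of 0.943.

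In the IL-6 and IL-10 pathways, neither *Il6* nor *Il10* passed edgeR's filter on low counts, and only DESeq2 tested them. The signalling chains *Il6st* and *Il10rb* were among the members with over 10 TPM. *Il6st*, which encodes gp130, the signalling chain of the IL-6 family, was at 140, 105, 114 and 107 in controls and 117, 164, 121 and 142 in Ox1RΔSERT mice. The groups overlapped, with a log2 fold change of 0.22 (SE 0.14). *Il6ra*, which binds IL-6, was at 18.3, 26.6, 17.1 and 25.8 in controls and 18.1, 35.4, 19.2 and 27.5 in Ox1RΔSERT mice. These values also overlapped, and the log2 fold change was 0.19 (SE 0.24). *Il6* itself did not pass the filter: it was at 0.183, 0.0951, 0.0903 and 0.210 in controls and 0.109, 0.967, 0.202 and 2.24 in Ox1RΔSERT mice. It was clearly above the 3-count value in mice 11601 and 11708, with up to 109 counts, and mice 11243 and 11613 were within the control range; the adjusted p in DESeq2 was 0.0956.

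*Il11ra1*, the receptor of IL-11, was at 24.7, 26.0, 25.1 and 27.6 in controls and 25.9, 33.0, 27.9 and 27.4 in Ox1RΔSERT mice. The log2 fold change was 0.15 (SE 0.10), and the groups overlapped. Of its 31-base words, 57.7% are shared with the gene *Gm13305*, so its level is uncertain. *Il10ra*, which binds IL-10, was at 1.44, 2.38, 1.08 and 1.66 in controls and 1.77, 6.96, 2.45 and 6.89 in Ox1RΔSERT mice. All but mouse 11243 were above the controls, and the log2 fold change was 1.47 (SE 0.48), with an adjusted p of 0.0671 in DESeq2, and 0.37 without mice 11601 and 11708. *Il10rb*, a chain shared with the receptors of IL-22 and other cytokines, was at 24.3, 20.1, 14.7 and 15.7 in controls and 16.9, 28.4, 17.5 and 26.5 in Ox1RΔSERT mice. Its groups overlapped, with a log2 fold change of 0.26 (SE 0.22), and 14.9% of its 31-base words are shared, most of them with *Gm21970*. *Il10* was not tested in edgeR, at 0.131, 0.0634, 0.0903 and 0.126 in controls and 0.0655, 0.888, 0.0674 and 0.864 in Ox1RΔSERT mice. Its adjusted p in DESeq2 was 0.213. Like *Il6* and *Csf2*, it exceeded the other mice in 11601 and 11708 alone.

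*Il15ra*, which presents IL-15 to neighbouring cells, had the highest TPM of the 90 members, with a mean of 39.8, and was at 63.7, 68.8, 75.9 and 59.2 in controls and 61.2, 49.2, 70.7 and 57.2 in Ox1RΔSERT mice. It was lowest in mouse 11601, with a log2 fold change of -0.17 (SE 0.13). Under library size scaling and on both TPM scales this was above 0, as was the median of all genes. Its ligand *Il15* was at 3.14, 1.17, 0.948 and 0.694 in controls and 1.38, 1.81, 1.30 and 1.81 in Ox1RΔSERT mice. Control mouse 10684 had the highest value, and the log2 fold change was 0.09 (SE 0.45). *Il7r*, the receptor of IL-7, was at 0.183, 1.52, 0.339 and 0.904 in controls and 0.699, 8.86, 0.988 and 7.98 in Ox1RΔSERT mice. Mice 11601 and 11708 stood far above the rest, with a log2 fold change of 2.66 (SE 0.96), 0.22 without them. *Il16*, a ligand of CD4, was at 1.78, 2.06, 1.58 and 1.53 in controls and 1.72, 2.74, 1.21 and 2.47 in Ox1RΔSERT mice. Mouse 11613 had the lowest value and mouse 11601 the highest, with a log2 fold change of 0.23 (SE 0.27).

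**Figure D4:**
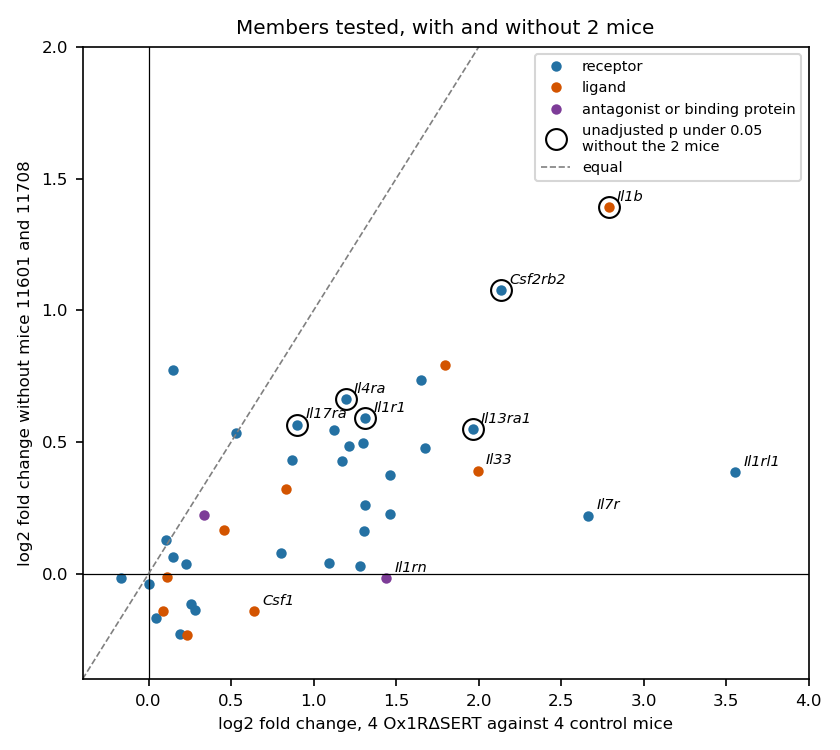
Log2 fold change of the 43 members tested in all 8 mice (horizontal axis) and without Ox1RΔSERT mice 11601 and 11708 (vertical axis), coloured by role; ringed points had an unadjusted p under 0.05 in edgeR without the 2 mice. Most points lie below the dashed line of equal values: *Il1rl1* is at 3.56 and 0.38, and *Il1b* at 2.79 and 1.39.

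The other genes of these pathways were examined as lists, described by counts at an unadjusted p under 0.05 in edgeR's test, none of which passed adjustment. Each count is to be read beside all genes tested, of which 10.2% were higher and 4.96% lower at this p. Of 27 tested genes of IL-1 signalling and the inflammasome, 9 were higher and 0 lower in Ox1RΔSERT mice, with a median log2 fold change of 0.18. They included *Nfkb2*, an NF-kappa B subunit (log2 fold change 0.66, SE 0.17), *Pycard*, the inflammasome adaptor ASC (1.80, 0.56), and *Casp1*, the caspase that cleaves IL-1β and IL-18 (1.46, 0.48). *Casp1* was at 2.30, 1.40, 1.24 and 1.07 in controls and 1.83, 6.73, 2.07 and 5.90 in Ox1RΔSERT mice, again highest in mice 11601 and 11708. DESeq2 called *Nfkb2* and *Pycard*, with adjusted p-values of 0.0406 and 0.0468. Without mice 11601 and 11708 the log2 fold changes were 0.36 for *Nfkb2*, 0.40 for *Pycard* and 0.38 for *Casp1*.

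Of 25 tested genes of JAK-STAT signalling, 5 were higher and 1 lower, with a median log2 fold change of 0.06. *Socs3*, the feedback inhibitor of gp130 receptors, was at 17.0, 4.53, 13.1 and 5.78 in controls and 18.8, 48.2, 19.3 and 43.0 in Ox1RΔSERT mice. All 4 Ox1RΔSERT mice were above the controls, 2 of them by little, and the log2 fold change was 1.68 (SE 0.49), with an adjusted p of 0.0292 in DESeq2, and 0.92 without mice 11601 and 11708. *Ptpn6*, the phosphatase SHP-1 of blood cells, had a log2 fold change of 1.77 (SE 0.49) and *Jak2*, the kinase used by GM-CSF and IL-3 receptors, 0.59 (SE 0.20), whereas *Ptpn11*, the phosphatase SHP-2, was at -0.26 (SE 0.11). Without the 2 mice these 3 were at 0.60, 0.19 and -0.18. Of 9 tested genes of IL-17 signalling, 2 were higher and 0 lower, both of them neutrophil chemokines: *Cxcl1* had a log2 fold change of 2.60 (SE 0.71), with an adjusted p of 0.0109 in DESeq2, and *Cxcl5* one of 3.83 (SE 1.19), and without mice 11601 and 11708 they were at 0.87 and 1.29.

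Among 11 tested related cytokines, 5 were higher and 1 lower. *Spp1*, which encodes osteopontin, was at 0.758, 1.43, 0.700 and 1.68 in controls and 2.51, 62.0, 6.35 and 64.2 in Ox1RΔSERT mice. All 4 Ox1RΔSERT mice were above the controls, with a log2 fold change of 4.88 (SE 1.06) and an adjusted p of 0.00166 in DESeq2, and 1.96 without mice 11601 and 11708. *Clcf1*, a cytokine of the IL-6 family, had a log2 fold change of 1.67 (SE 0.54), and *Cntf*, of the same family, one of -0.75 (SE 0.25). Without the 2 mice they were at 0.32 and -0.76. *Tnf*, *Ifng*, *Lif* and *Tslp* did not pass the filter on low counts. Of 19 related receptors tested, 4 were higher and 0 lower, namely *Flt3* (1.36), *Tnfrsf1b* (1.19), *Ifngr2* (0.58) and *Ifnar1* (0.20), given as log2 fold changes, which were 0.75, 0.068, 0.045 and 0.12 without the 2 mice.

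Markers of leukocytes, macrophages and fibroblasts were also highest in mice 11601 and 11708. The summed TPM of 7 macrophage markers (*Csf1r* left out) was 51.7 to 105 in controls and 80.4, 631, 108 and 462 in Ox1RΔSERT mice, and 6 of 7 were at an unadjusted p under 0.05. That of 4 leukocyte markers was 6.21 to 11.9 in controls and 11.3, 59.9, 14.8 and 57.2 in Ox1RΔSERT mice, with 4 of 4 at such a p. For 4 fibroblast markers it was 61.6 to 103 in controls and 83.6, 569, 135 and 284 in Ox1RΔSERT mice, with 4 of 4 at such a p. Of all genes tested, 10.2% were higher at such a p. *Ptprc*, which encodes the leukocyte antigen CD45, had normalized values of 5.62, 7.67, 3.27 and 4.56 in controls and 6.97, 26.9, 7.84 and 24.0 in Ox1RΔSERT mice. The part of these cell types in the results on the members was not tested.

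Markers of lymphocytes were low. The summed TPM of 5 T cell markers (*Il7r* left out) was 0.14 to 0.552 in control mice and 0.281, 1.01, 0.335 and 0.719 in Ox1RΔSERT mice, and the normalized value of *Cd3e* was at most 0.226. *Cd4* was the only tested T cell marker, with a normalized value of at most 0.696 and a log2 fold change of 0.33 (SE 0.39). The sum for 4 B cell markers was 0.0731 to 0.376 TPM in control mice and 0.153 to 0.334 TPM in Ox1RΔSERT mice, and *Ms4a1*, the only one tested, was at most 0.546 as a normalized value. None of 4 NK cell markers was tested, and their sum was 0.0494 to 0.138 TPM in control mice and 0.281, 0.864, 0.0576 and 0.302 TPM in Ox1RΔSERT mice. *Ly6g* and *Mpo*, markers of mature neutrophils and their precursors, reached 0.105 and 0.0823, while the summed TPM of the neutrophil list (*Csf3r* left out), led by *S100a8* and *S100a9*, was 6.54 to 41.4 in controls and 19.2, 44.5, 48.0 and 85.5 in Ox1RΔSERT mice. None of its 3 tested genes was at an unadjusted p under 0.05. Markers of mast cells, which are known to express ST2, had a summed TPM of 6.94 to 12.2 in controls and 7.54, 31.7, 13.7 and 17.8 in Ox1RΔSERT mice, with 0 of 5 at such a p. Endothelial markers were at 47.8 to 56.0 TPM in controls and 56.3 to 81.2 TPM in Ox1RΔSERT mice, with 0 of 4 at such a p. In edgeR their log2 fold changes were 0.059 (*Pecam1*), 0.066 (*Cdh5*), -0.14 (*Kdr*) and -0.15 (*Tie1*), with a median of -0.040. The median of all genes was itself 0.23 with log2(TPM + 1) and 0.32 with log2(TPM + 0.1). The tissue expressed *Ucp1*, the uncoupling protein of brown adipocytes, at normalized values of 3731, 3806, 4894 and 4631 in controls and 3817, 2513, 2903 and 2513 in Ox1RΔSERT mice. Of 6 brown adipocyte markers, 2, *Ucp1* and *Dio2*, were lower at an unadjusted p under 0.05, beside 4.96% of all genes tested. Skeletal muscle markers were highest in mouse 11708 (1015 TPM), control mouse 11253 (515 TPM) and mouse 11601 (132 TPM), beside 27.7 to 48.8 TPM in the other 5.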

How the data were processed

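The authors prepared stranded poly-A libraries from BAT and quantified genes with Salmon 0.14.1 in nf-core/rnaseq on GRCm38; the submitters' processing notes also list STAR, GRCm38.p6 and DESeq2 1.26.0. The annotation release, trimming and the use of strand in counting are not given in the sources used here. The authors deposited estimated counts, not normalized, and TPM values, normalized for transcript length and library size, for each mouse. Estimated counts were rounded to whole numbers. Symbols were found for 44118 of 44674 identifiers.

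Groups were compared with edgeR 4.0.16 (filterByExpr, TMM, quasi-likelihood test, two-sided, Benjamini-Hochberg over all genes tested, threshold 0.05) in R 4.3.3, with no covariate. Fold changes and standard errors come from this fit. Alternatives were DESeq2 1.42.0, RLE and library size scaling, no filter or at least 10 counts in every mouse, limma 3.58.1 with voom or on log2(TPM + 1) and log2(TPM + 0.1), each mouse left out, and mice 11601 and 11708 left out together. DESeq2 with mice left out was added after the data were seen. Single values were compared with exact permutation tests over 70 assignments. The scripts were tested on simulated counts. Deviations per mouse used log2 of the normalized value plus 0.1. Reads shared between genes were assessed as shared words of 31 bases.

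Named members are the 8 ligands and 12 receptors with the highest mean TPM, those called by DESeq2 or edgeR, those without overlap between the groups, and preset members known from adipose tissue or myeloid cells. For the related lists they are the 3 tested genes with the lowest p and partners of members. A gene that this rule names is not reported here. *Il1rl2*, *Il1f9*, *Il1rap*, *Il18rap*, *Il13ra2*, *Csf2*, *Il2rb*, *Il17re* and further genes of the lists were named after their values were seen. Members and lists were chosen with earlier results of these data known.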

Additional observations from a re-analysis of the deposited data

Results flagged for a closer look

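In the 86 groups of 4 mice of the 43 members tested, 6 had a mouse far from the other 3 by Dixon's criterion at the 95% level, which chance gives in about 1 in 20 groups. The normalized value of *Csf1r* was 21.7 in control mouse 11253, beside 9.12 to 10.6 in the other controls, and that of *Il2rb*, a chain of the IL-2 and IL-15 receptors, was 0.380 in the same mouse, beside 0.131 to 0.168. In control mouse 10684, *Il17rc* was at 8.29, beside 5.40 to 5.76, *Il33* at 11.6, beside 1.46 to 2.80, and *Il18rap* at 1.23, beside 0.231 to 0.384. *Il17re*, a chain of the IL-17C receptor, was at 3.64 in Ox1RΔSERT mouse 11613, beside 0.651 to 1.09 in the other Ox1RΔSERT mice. The cause was not tested.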

How the results depend on the processing

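edgeR and limma called no member under any alternative. DESeq2 called 8, and with 1 mouse left out it called 22 without mouse 11243, 16 without 11613, 9 without control mouse 10684, 6 without 11253, 2 without 11563, 1 without 11560, 1 without mouse 11601 and 0 without 11708, as without both mice 11601 and 11708. The share of all genes that DESeq2 called moved likewise, from 1.75% to 9.44% without 11243, 6.02% without 11613, 2.64% without 10684 and 0.0862% to 1.59% without each of the others. Members at an unadjusted p under 0.05 numbered 25, but 14 with limma voom and 6 without both mice (6 in DESeq2). With 1 mouse left out they numbered 13 to 26 in edgeR (13 without mouse 11708, 14 without control mouse 11560 or 11563, 15 without mouse 11601) and 14 to 31 in DESeq2 (14 without 11708, 16 without 11601). Members without overlap numbered 5 to 17 with 1 mouse left out, with 17 without control mouse 10684 or mouse 11243 and 9 without control mouse 11253, beside 5.50% of all genes in all 8 mice and 14.2%, 15.8% and 11.3% in these fits. Among the genes fitted by DESeq2 they numbered 19 without mouse 11243, 18 without 10684, 11 without 11253 and 9 without 11613, beside 11.2%, 10.1%, 8.45% and 7.99% of all genes. Without both mice 11601 and 11708, 5 of the 44 members fitted by edgeR did not overlap, beside 10.8% of all genes. Of the 72 members fitted by DESeq2 without both mice, 7 did not overlap, beside 9.51% of all genes. Related genes at such a p numbered 27, but 17 with voom, 4 without both mice (5 in DESeq2), and 13 to 33 (DESeq2 17 to 40) with 1 mouse left out, lowest in both tools without mouse 11708. These counts are to be read beside the same shares of all genes at such a p. The median log2 fold change of the receptors fitted was 0.26 without both mice (0.25 in DESeq2). In edgeR it was 0.32 over the 32 receptors tested in all 8 mice. Library size scaling moved the median of all genes to 0.22, log2(TPM + 0.1) to 0.32 and log2(TPM + 1) to 0.23.

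Of 774 alternatives for 30 named members, 692 kept the direction and the side of the threshold, 55 passed it, all in DESeq2, and 27 changed sign. *Il15ra* was at 0.043 with library size scaling and at 0.13 on both TPM scales. Without both mice, edgeR and DESeq2 each gave -0.14 for *Csf1*, -0.11 for *Il10rb*, -0.14 for *Il15*, -0.23 for *Il16*, -0.017 for *Il1rn* and -0.23 for *Il6ra*, and for *Il34* -0.014 and -0.012. Without mouse 11601, *Il34* was at -0.094 (DESeq2 -0.092) and *Il6ra* at -0.023 (DESeq2 -0.030). *Il15* was at -0.028 without control mouse 11253 (DESeq2 -0.022), -0.084 without 11560 (-0.093) and -0.17 without 11563 (-0.17). With 1 mouse left out edgeR reached 0.75 for *Il15*, 0.28 for *Il34* and 0.30 for *Il6ra*. The cause was not tested. No paired analysis was possible because the mice of the groups share no replicate number. With 4 mice a group a permutation p cannot go below 0.0286, and members with few counts were not tested in edgeR.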
